A study of Mus musculus with 32 samples.

Results

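The genes described here are 8 heat shock chaperones (Hsp90aa1, Hsp90ab1, Hsph1, Hspa8, Hspa1a, Hspa1b, Hspb1 and Dnajb1) and 2 cold-induced RNA-binding genes (Cirbp and Rbm3). They were chosen by name, with earlier results of these data known. A probe was taken for a gene where its RefSeq identifier belonged to that gene. Of the 10 genes 9 had a probe, 14 probes in all, and these 9 were among the 23110 genes tested. Hspa1b was not analysed here because no probe identifier matched it.

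The study measured liver transcripts with Agilent 1-colour arrays in 32 singly housed male C57BL/6 mice, all wild type, and each mouse had its own array. It asked how a disturbed light schedule alters gene expression over the day. The 16 mice of the steady schedule (NS in the labels) had 12 h of light and 12 h of darkness throughout. The 16 mice under chronic jet lag (CJ) were shifted repeatedly between a pair of rooms, starting at 4 weeks old, with lights coming on 8 h apart. Sampling was at ZT2, ZT10 and ZT18, where zeitgeber time (ZT) counts the hours since lights on and ZT12 is lights off, in animals aged 12 or 30 weeks. This gave 12 groups, of 2 mice for ZT2 and of 3 for each later time. How ZT in a jet-lagged mouse relates to its last shift is not given in the labels, and each mouse gave a single time. The samples are whole liver, so fewer cells of a type and less RNA per cell cannot be told apart.

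Heat shock proteins are chaperones that bind unfolded or client proteins, and most of their genes are switched on by the transcription factor HSF1 when proteins are damaged or the cell is warmed. Cirbp and Rbm3 encode RNA-binding proteins whose transcripts accumulate when temperature falls by a few degrees. In mice, which are active and feed at night, body temperature is higher in the dark phase, and heat shock genes and Cirbp are known as liver transcripts that follow this daily cycle in opposite directions.

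A level below is the processed signal of the scanner on a log2 scale, set so that 0 is the 75th percentile of its array and a difference of 1 is a 2-fold difference. Levels of different probes are not compared. A gene was called when the Benjamini-Hochberg adjusted p of the limma fit over all genes was under 0.05. For tests over the 3 times the range runs from the lowest to the highest fitted mean, with the ages averaged. SD is given over mice and SE from the fit.

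Between 43.4% and 58.1% of 55681 probes were well above background on each array, and no spot was saturated (0 on each). The 8 hepatocyte markers averaged 8.11 to 8.79 on every array. Of 12 pancreatic acinar markers 7 were measured, and their mean ran from -3.15 to 3.62 over arrays. Of 12 skeletal muscle markers 11 were measured, 3 of them above background on every array, and their mean ran from -4.63 to 3.54. The other lists ran from 2.60 to 4.07 for Kupffer cells, -2.54 to -1.23 for cholangiocytes, 0.49 to 1.61 for stellate cells and fibroblasts, 1.42 to 2.79 for endothelium, -4.14 to 1.097 for adipocytes, 0.88 to 1.88 for red blood cells and -2.88 to -1.37 for lymphocytes. On 10 arrays the acinar mean and on 9 arrays the muscle mean lay over 2 above the median of all arrays. Muscle markers moved with the groups: their mean was 0.42 to 2.15 in the 6 steady mice at ZT18 and -4.63 to -1.59 in the 6 at ZT10. In jet lag it was -3.75 to 3.39 at ZT18 and -3.91 to 3.54 at ZT10. The acinar mean at ZT10 was -2.61 to 3.62 in jet lag and -2.99 to 1.91 in steady mice.

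In the steady schedule all 9 measured genes varied with time of day, against 31.3% of all genes. By fitted mean the 7 chaperones were highest at ZT18, in the dark phase, and Cirbp and Rbm3 at ZT10, late in the light phase. ZT18 minus ZT2 was not called for Hsph1 (0.66, adjusted p = 0.0571) or Hspb1 (0.62, 0.0959). ZT10 minus ZT2 was not called for Cirbp (0.43, adjusted p = 0.0837), nor ZT18 minus ZT10 for Rbm3 (-0.20, 0.138). At 30 weeks alone Rbm3 was highest at ZT18. The median range of the 9 was 1.34, against 0.28 over all genes tested. The genes were chosen with earlier results of these data known, so these contrasts with all genes describe the list and do not test it. Of all genes called in this test 33.6% were highest at ZT18 and 38.3% at ZT10. At 12 weeks alone 8 of the 9 were called (17.5% of all genes) and at 30 weeks alone 8 of the 9 (11.2%), in both cases all but Hspa1a. The count stayed at 9 when any 1 mouse was left out, and 8 were called without the 9 muscle-rich arrays, which leaves 2 steady mice at ZT18, 1 of each age, each assumed to vary like the other groups.

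Under chronic jet lag 8 of the 9 varied with time of day, all but Hspb1, against 11.2% of all genes. The median range of all 9 was 0.77, against 0.22 over all genes. By fitted mean the chaperones called were again highest at ZT18 and Rbm3 at ZT10. Cirbp was highest at ZT2, not apart from ZT10 (adjusted p = 0.409). ZT18 minus ZT10 alone was not called for Hsp90aa1 (0.69, adjusted p = 0.0711), Hsp90ab1 (0.39, 0.0575) or Hsph1 (0.95, 0.0575). Nor was it called for Hspb1 (0.63, adjusted p = 0.254), Cirbp (-0.67, 0.0711) or Rbm3 (-0.14, 0.67). Among the chaperones called over the 3 times, ZT18 minus ZT2 was not called for Hsp90ab1 (0.22, adjusted p = 0.114). At 12 weeks alone 5 were called (5.66% of all genes) and at 30 weeks alone 3 (3.71%), Hspa8, Hspa1a and Dnajb1 at both ages. Without the 9 muscle-rich arrays, and equally without the 10 acinar-rich arrays, 3 of the 9 were called. Of all genes 2591 were called with these arrays, and 1255 and 828 without them. The part of other cell types or of the smaller groups in these lower counts was not tested.

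**Figure D1:**
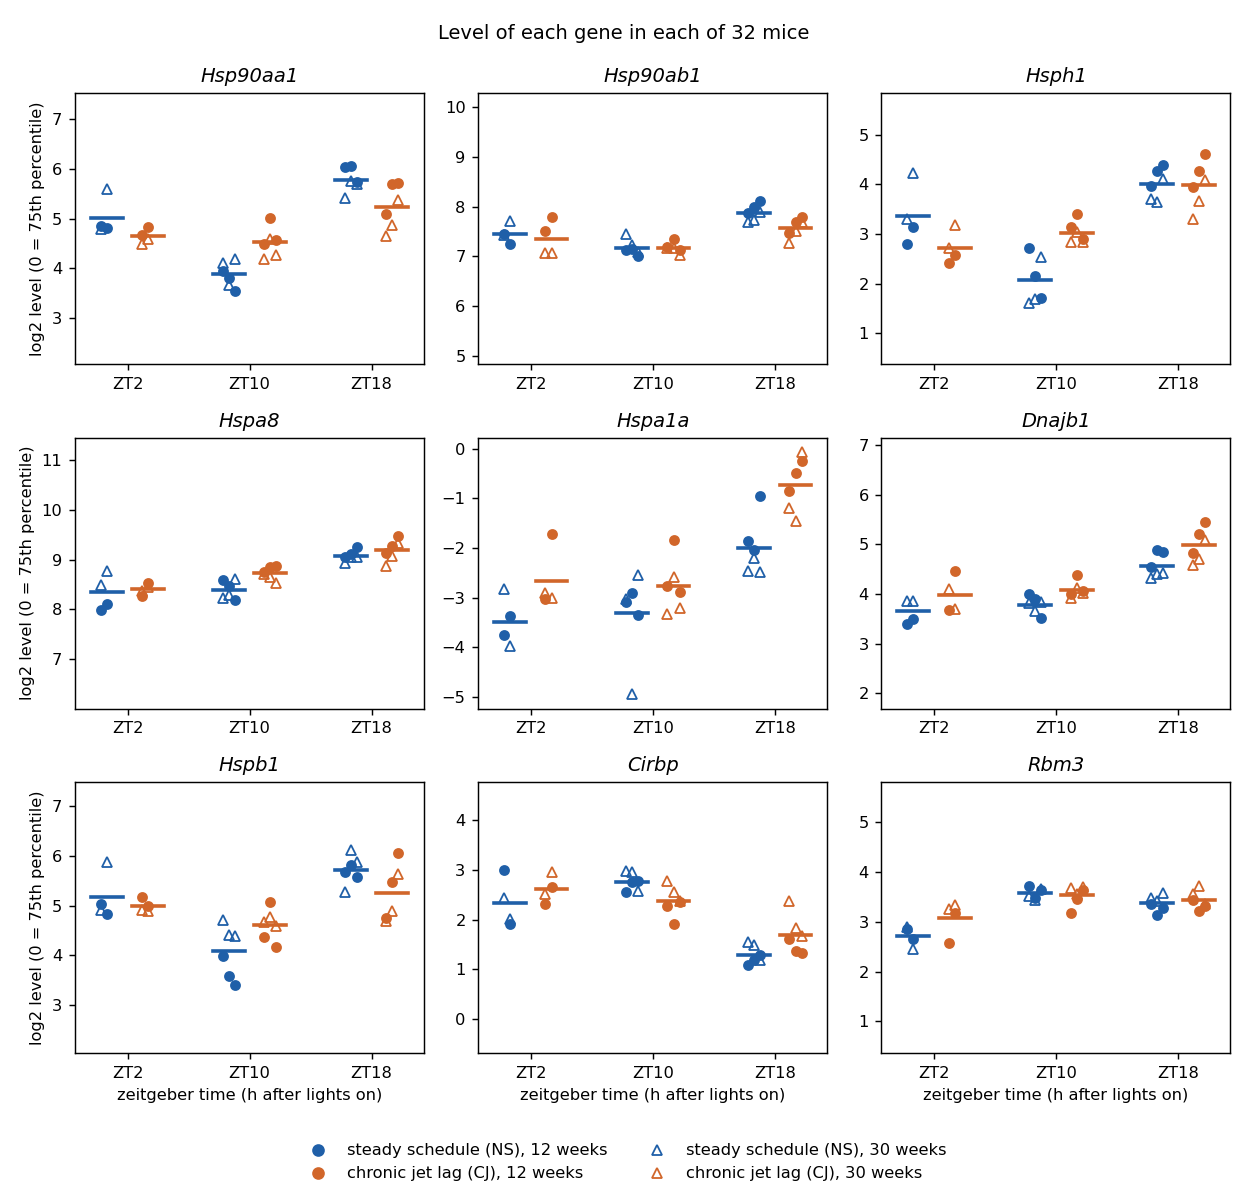
Level of each gene (log2, 0 is the array's 75th percentile; each panel spans the same number of log2 units) at ZT2, ZT10 and ZT18. Each point is a mouse, blue for the steady schedule and orange for jet lag, filled circles at 12 weeks and open triangles at 30 weeks, and bars are the mean of both ages. In the steady schedule Hsp90aa1 was lowest at ZT10 (3.55 to 4.19) and highest at ZT18 (5.42 to 6.06), and Cirbp ran the other way.

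The daily profile itself differed between schedules for 3 of the 9 genes, Hsp90aa1, Hsph1 and Cirbp, against 8.18% of all genes. In each of them the range was smaller in jet lag. Jet-lagged mice had more Hsp90aa1 and Hsph1 than steady mice at ZT10, and less Hsp90aa1 at ZT18. At 12 weeks alone 1 gene passed this test, Hsp90aa1 (1.93% of all genes). At 30 weeks alone 0 did by limma (1.86% of all genes), with 4 at an unadjusted p under 0.05. Without the acinar-rich arrays 0 of the 9 passed (319 of all genes), and without the muscle-rich arrays 2 did (613 of all genes).

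**Figure D2:**
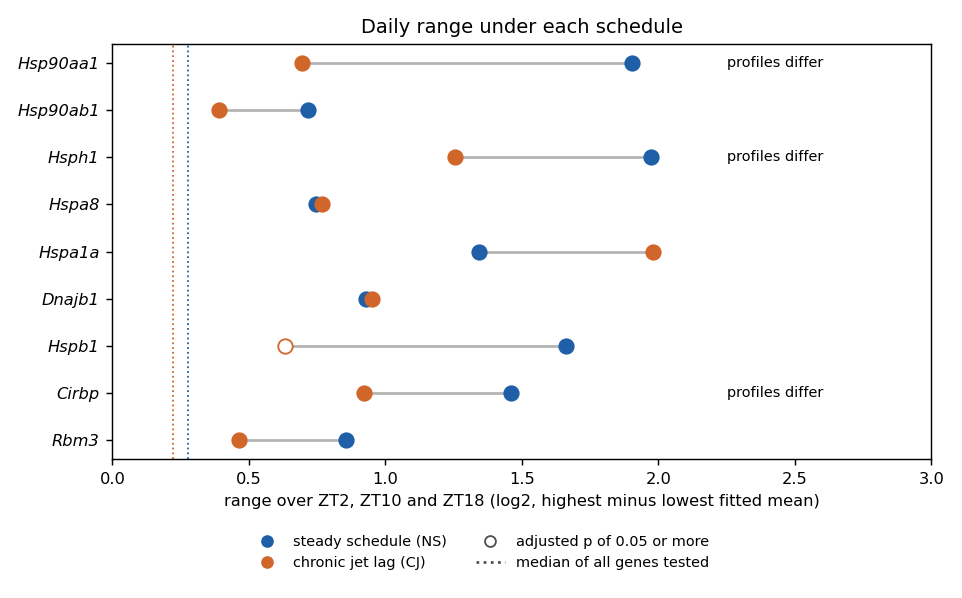
Range over the 3 times (log2, highest minus lowest fitted mean of both ages) under the steady schedule (blue) and jet lag (orange); open symbols missed the threshold, dotted lines are the medians of all genes tested, and "profiles differ" marks genes called in the test of schedule by time of day. The range of Hsp90aa1 was 1.90 and 0.69, while Hspa8 (0.75 and 0.77) and Dnajb1 (0.93 and 0.95) had nearly the same range in both.

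Averaged over the 3 times, 3 of the 9 genes differed between schedules, Dnajb1, Hspa1a and Hspa8, against 10.7% of all genes. All 3 were higher in jet lag, as were 4.54% of all genes. At ZT2, with 4 mice per schedule, 0 were called by limma (1.74% of all genes), and 3 had an unadjusted p under 0.05. At ZT10 3 were called, Hsp90aa1, Hsph1 and Hspa8, against 6.45% of all genes, all higher in jet lag as were 2.47% of all genes. At ZT18 3 were called, against 9.89% of all genes: Hsp90aa1 and Hsp90ab1 were lower in jet lag, as were 5.38% of all genes, and Hspa1a was higher, as were 4.5%. Over the 3 times, at ZT10 and at ZT18, fewer of the 9 were called without the muscle-rich or without the acinar-rich arrays. Fewer of all genes were called over the 3 times too, and both fits left some groups with 1 mouse.

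**Figure D3:**
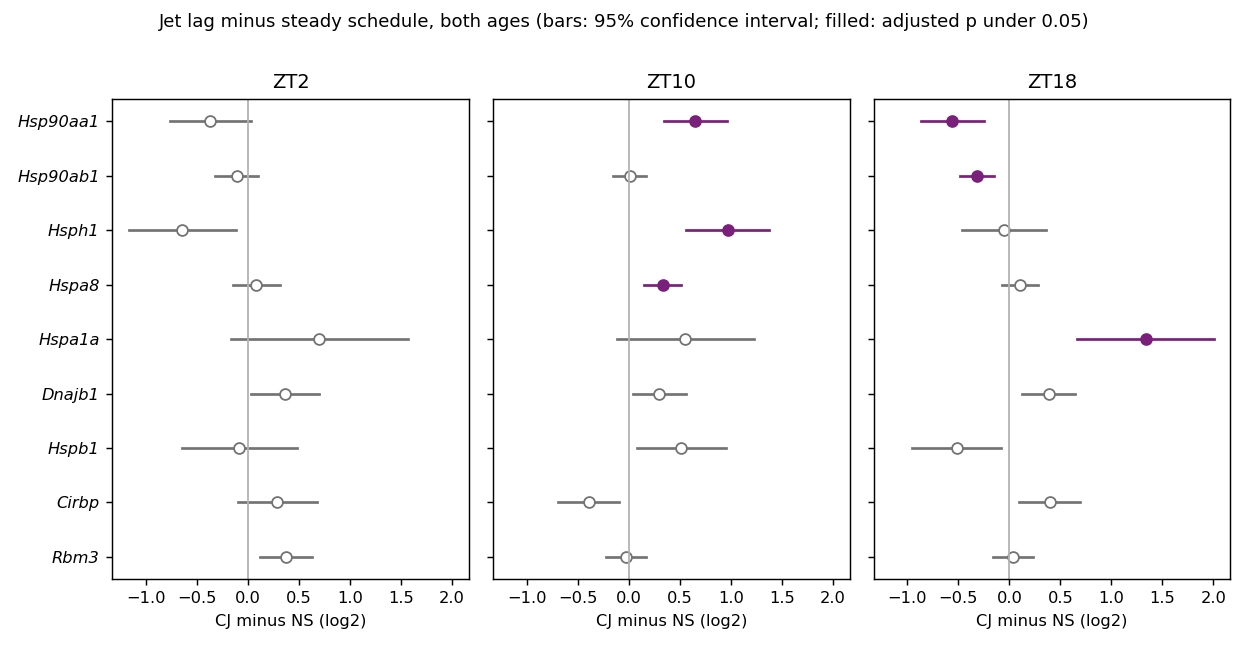
Jet lag minus steady schedule (log2) at each time, with both ages averaged; points are estimates, bars are 95% confidence intervals, and filled purple points were called. Hsp90aa1 lay above 0 at ZT10 (0.65) and below 0 at ZT18 (-0.56).

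Hsp90aa1 (RefSeq NM_010480) encodes the heat-inducible form of HSP90, the chaperone that holds kinases and steroid receptors in an activatable state. In steady mice at ZT2 its level was 4.85 and 4.81 at 12 weeks and 4.79 and 5.60 at 30 weeks. At ZT10 it was 3.94, 3.80 and 3.55 at 12 weeks and 4.12, 3.67 and 4.19 at 30 weeks, and at ZT18 6.03, 6.06 and 5.75 and then 5.42, 5.75 and 5.71. All 6 mice at ZT10 lay below all 4 at ZT2 and all 6 at ZT18. ZT18 exceeded ZT10 by 1.90 ± 0.15 (SE), a 3.74-fold difference (adjusted p = 5.16e-09), and ZT10 was below ZT2 by a change of -1.13 ± 0.17 (adjusted p = 3.66e-05).

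In jet-lagged mice Hsp90aa1 was at 4.68 and 4.83 (12 weeks) and 4.49 and 4.58 (30 weeks) at ZT2. At ZT10 it was 4.50, 5.02 and 4.58 and then 4.19, 4.59 and 4.27, and at ZT18 5.09, 5.70 and 5.72 and then 4.65, 4.87 and 5.37. The ranges of the 3 times overlapped here, and the level at ZT10 was no longer apart from that at ZT2. The range over the day was 0.69 (adjusted p = 0.00653), 36.5% of the steady range of 1.90 (adjusted p = 1.22e-08), and the profiles differed (range of the difference 1.21, adjusted p = 0.00142). Jet lag minus steady was 0.65 ± 0.15 at ZT10 (1.57-fold, adjusted p = 0.00994) and -0.56 ± 0.15 at ZT18 (1.47-fold lower, adjusted p = 0.0186). The ZT10 difference was 0.95 at 12 weeks alone (adjusted p = 0.0267) and 0.36 at 30 weeks alone (0.562, not called). At ZT18 neither age alone was called (-0.45, adjusted p = 0.296, and -0.66, 0.0969). The ZT18 difference lost its call without steady mouse 2 at 12 weeks (-0.51, adjusted p = 0.0533) or 30 weeks (-0.53, 0.0542), or without jet-lagged mouse 1 at 12 weeks (-0.44, 0.0648) or 30 weeks (-0.48, 0.0612). It was also lost with slide (-0.57, adjusted p = 0.0692) or scan day (-0.55, 0.0501) as a fixed block and without the acinar-rich (-0.49, 0.235) or muscle-rich arrays (-0.37, 0.511). The ZT10 call was lost with slide as a fixed block (0.66, adjusted p = 0.0514), with marker levels as covariates (0.66, 0.125) and without the acinar-rich arrays (0.35, 0.457), which leaves 2 of 6 jet-lagged mice at ZT10. The call on the jet-lag range was lost with slide as a fixed block (0.68, adjusted p = 0.0538) and without the acinar-rich (0.87, 0.0887) or muscle-rich arrays (0.74, 0.101). The test of the profiles lost its call without the acinar-rich arrays (0.85, adjusted p = 0.229).

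Hsp90ab1 (NM_008302) encodes the constitutive HSP90. Its steady levels were 7.24 to 7.70 at ZT2, 7.01 to 7.45 at ZT10 and 7.69 to 8.11 at ZT18, so that every mouse at ZT18 lay above every mouse at ZT10. The steady range was 0.72 (adjusted p = 1.57e-06), smaller than that of Hsp90aa1. In jet lag the levels were 7.06 to 7.78, 7.03 to 7.35 and 7.27 to 7.80 at the same times, with a range of 0.39 (adjusted p = 0.00626), and the profiles did not pass the test of a difference (0.33, adjusted p = 0.169). At ZT18 jet-lagged mice lay lower (-0.32 ± 0.08, 1.25-fold, adjusted p = 0.0118), and this call was lost without the muscle-rich (-0.22, adjusted p = 0.438) or acinar-rich arrays (-0.35, 0.175), as was that on the jet-lag range (0.45, adjusted p = 0.0826, and 0.41, 0.198). At ZT10 the difference was 0.01 with a 95% confidence interval from -0.16 to 0.17.

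Hsph1 (NM_013559) encodes HSP105, which releases nucleotide from HSP70 and helps to dissolve aggregates. In steady mice its level was 2.80 and 3.14 (12 weeks) and 3.30 and 4.23 (30 weeks) at ZT2. At ZT10 it was 2.72, 2.15 and 1.72 and then 1.61, 1.69 and 2.53, and at ZT18 3.96, 4.28 and 4.40 and then 3.71, 3.65 and 4.10. All mice at ZT10 lay below all mice at the other two times. The steady range, 1.97 (adjusted p = 3.38e-07), was the largest of the 9 genes, a 3.93-fold difference between ZT18 and ZT10.

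In jet lag Hsph1 was at 2.41 and 2.58 and then 2.71 and 3.18 at ZT2, and at 3.15, 3.41 and 2.90 and then 2.84, 3.03 and 2.85 at ZT10. At ZT18 it was 3.95, 4.28 and 4.61 and then 3.31, 3.67 and 4.08. In jet lag ZT10 and ZT2 overlapped and did not differ by the test (0.30 ± 0.23, adjusted p = 0.476), and the ZT18 levels of the schedules overlapped. All 6 jet-lagged mice at ZT10 lay above all 6 steady mice (0.97 ± 0.20, 1.96-fold, adjusted p = 0.0043), and the profiles differed (1.62, adjusted p = 0.00517). At ZT18 the difference was -0.05, with a 95% confidence interval from -0.46 to 0.36. The second Hsph1 probe gave nearly the same ranges as the main probe (1.99 and 1.95 in steady mice, 1.27 and 1.26 in jet lag). The call on the profiles was lost with slide as a fixed block (1.63, adjusted p = 0.0528), with marker covariates (1.55, 0.0648) and without the acinar-rich arrays (1.36, 0.247), and that at ZT10 with marker covariates (0.93, adjusted p = 0.0888) and without the acinar-rich arrays (0.85, 0.277). The jet-lag range, 1.26 (adjusted p = 0.000805), lost its call without the acinar-rich (1.12, 0.117) or muscle-rich arrays (1.28, 0.0502).

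The heat shock element, the DNA motif that HSF1 binds, is made of inverted repeats of a short unit, and 2 such units read GAANNTTC (head to head) or TTCNNGAA (tail to tail) on either strand. The 250 bases before the start were searched in 9 promoters of 6 of the genes, the entries that a RefSeq table (GRCm38.p6) held for Hspb1, Hsph1, Dnajb1, Cirbp, Hspa1a and Hspa1b. Both Hsph1 starts lie close together on the minus strand and share a single site, here from chr5:149636347-149636384 with the site in capitals.
Hsph1: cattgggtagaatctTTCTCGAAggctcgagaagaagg
TTCNNGAA was present in 7.166% of all 32851 promoters and GAANNTTC in 6.694%, and 12.84% held at least 1 of them. The three-unit element was found in 0 of the 9 promoters and in 0.4657% of all. Only exact matches to the letters were searched, and no promoter of Dnajb1 or Cirbp held a heat shock element by them. The clock's E-box CACGTG, on either strand, was found in 1 Hsph1 promoter and in 6.021% of all. A match is a description of the letters and not evidence of binding.

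Hspa8 (NM_031165) encodes the constitutive HSC70, the main HSP70 of unstressed cells. Its steady levels were 7.99 to 8.78 at ZT2, 8.19 to 8.61 at ZT10 and 8.94 to 9.25 at ZT18. Its jet-lag levels were 8.26 to 8.54, 8.53 to 8.86 and 8.88 to 9.47. In both schedules every mouse at ZT18 lay above every mouse at the earlier times, and the ranges were alike in size (0.75, adjusted p = 1.33e-06, and 0.77, adjusted p = 4.14e-05). All 3 Hspa8 probes were highest at ZT18 in both schedules. At ZT10 jet-lagged mice lay 0.33 ± 0.09 higher (1.26-fold, adjusted p = 0.0225), and over the 3 times 0.17 ± 0.05 higher (1.13-fold, adjusted p = 0.0371). Over the 3 times the difference was 0.31 at 12 weeks alone (adjusted p = 0.0202) and 0.03 at 30 weeks alone (0.883). These ages were not called apart (-0.28, adjusted p = 0.27). At ZT10 neither age alone was called (0.41, adjusted p = 0.0955, and 0.26, 0.428).

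The Hspa8 difference at ZT10 lost its call under 8 of 12 alternatives (adjusted p up to 0.362) and that over the 3 times under 9 of 12 (adjusted p up to 0.371). With quantile normalization they were 0.25 (adjusted p = 0.15) and 0.12 (adjusted p = 0.222), and as the mean of all 3 probes 0.26 (adjusted p = 0.125) and 0.09 (adjusted p = 0.371). The ZT10 call was lost without any of 6 mice (0.27 to 0.32, adjusted p = 0.0501 to 0.0837), steady mice 1 and 2 and jet-lagged mice 1 and 2 at 30 weeks, steady mouse 3 and jet-lagged mouse 2 at 12 weeks. The call over the 3 times was lost without any of 15 mice (adjusted p = 0.0524 to 0.103). They were steady ZT2 mouse 1 of either age, jet-lagged ZT2 mouse 2 of either age, the 6 mice just named, and at ZT18 steady mouse 1 of either age, steady mouse 2 and jet-lagged mouse 3 at 30 weeks, and jet-lagged mouse 3 at 12 weeks.

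Hspa1a (NM_010479) encodes the strongly heat-inducible HSP70. Its probe was above background on 30 of 32 arrays, not in steady mouse 2 of 30 weeks at ZT2 and at ZT10, and Hspa1b is a near-identical copy, so the level may come from either gene and is uncertain. In steady mice it was -3.76 and -3.36 (12 weeks) and -2.82 and -3.98 (30 weeks) at ZT2. Values at ZT10 were -3.08, -2.91 and -3.35 and then -3.02, -4.93 and -2.53, and at ZT18 -1.86, -2.03 and -0.94 and then -2.45, -2.20 and -2.49. All 6 steady mice at ZT18 lay above the mice at the earlier times.

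In jet lag Hspa1a was at -3.02 and -1.72 and then -2.91 and -3.01 at ZT2, and at -2.75, -1.84 and -2.89 and then -3.33, -2.57 and -3.21 at ZT10. At ZT18 it was -0.86, -0.50 and -0.25 and then -1.19, -1.46 and -0.07, again above every mouse at the earlier times. The range was 1.34 in steady mice (adjusted p = 0.00705) and 1.98 in jet lag (adjusted p = 0.00034). The test of the profiles gave 0.78 (adjusted p = 0.558). Jet lag minus steady was 1.34 ± 0.32 at ZT18 (2.52-fold, adjusted p = 0.00989) and 0.86 ± 0.20 over the 3 times (1.82-fold, adjusted p = 0.00636). With normexp background correction and quantile normalization these were 0.76 (adjusted p = 0.000652) and 0.37 (adjusted p = 0.00479) and the steady range was 0.50 (adjusted p = 0.022). Without the muscle-rich arrays they were 1.34 (adjusted p = 0.227) and 0.89 (adjusted p = 0.0691) and the steady range was 1.65 (adjusted p = 0.0593). Without the acinar-rich arrays the ZT18 difference was 1.05 (adjusted p = 0.0861).

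The promoters of Hspa1a and Hspa1b held the same stretch, on the minus strand of chromosome 17, at chr17:34972238-34972308 and chr17:34959320-34959390. The first capitals mark TCCCCGCC on the opposite strand, known as the mild cold response element of Cirbp, and the second a head-to-head heat shock element.
Hspa1a and Hspa1b: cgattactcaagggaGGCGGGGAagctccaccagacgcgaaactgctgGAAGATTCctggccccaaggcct
The identical letters are shown because only Hspa1a had a probe matched by identifier, and the sequences of the pair also agree upstream of their starts.

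Dnajb1 (NM_018808) encodes HSP40, the J-protein that hands clients to HSP70 and starts its ATP hydrolysis. In steady mice its level was 3.39 and 3.50 (12 weeks) and 3.87 and 3.85 (30 weeks) at ZT2. Values at ZT10 were 4.00, 3.89 and 3.52 and then 3.82, 3.65 and 3.83, and at ZT18 4.55, 4.89 and 4.85 and then 4.32, 4.39 and 4.42. In jet lag it was 3.68 and 4.46 and then 4.10 and 3.70 at ZT2, 3.99, 4.37 and 4.06 and then 3.92, 4.12 and 4.01 at ZT10, and 4.83, 5.20 and 5.45 and then 4.58, 4.70 and 5.09 at ZT18. In both schedules all mice at ZT18 lay above all mice at the earlier times.

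The range of Dnajb1 was 0.93 in steady mice (adjusted p = 1.77e-05) and 0.95 in jet lag (adjusted p = 4.65e-05). The test of the profiles gave 0.08 (adjusted p = 0.959), which does not show that they were alike. Jet lag minus steady over the 3 times was 0.46 at 12 weeks alone (adjusted p = 0.0184) and 0.24 at 30 weeks alone (0.207, not called). With both ages the estimates at ZT2, ZT10 and ZT18 were 0.36, 0.30 and 0.38, not called singly. Over the 3 times and both ages the level was higher in jet lag by 0.35 ± 0.08 (1.27-fold, adjusted p = 0.00424). This call held under all 12 alternatives (adjusted p = 0.00104 to 0.0452) and without any 1 mouse (adjusted p = 0.000609 to 0.0155).

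Hspb1 (NM_013560) encodes HSP25, a small heat shock protein that holds unfolded proteins without ATP. In steady mice its level was 5.03 and 4.83 (12 weeks) and 4.92 and 5.88 (30 weeks) at ZT2. At ZT10 it was 3.98, 3.58 and 3.40 and then 4.71, 4.40 and 4.40, and at ZT18 5.67, 5.82 and 5.57 and then 5.28, 6.12 and 5.88. All 6 steady mice at ZT10 lay below the mice at the other two times, with a range of 1.66 (adjusted p = 8.65e-06). In jet lag it was 4.89 to 5.18 at ZT2, 4.16 to 5.08 at ZT10 and 4.69 to 6.06 at ZT18. These overlapped, and the range of 0.63 missed the threshold (adjusted p = 0.115), as did the test of the profiles (1.03, adjusted p = 0.0802).

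Single mice moved both Hspb1 tests across the threshold. The jet-lag range was 0.81 without mouse 2 of ZT10 at 12 weeks (adjusted p = 0.0338) and 0.84 without mouse 1 of ZT18 at 12 weeks (adjusted p = 0.0195). The test of the profiles gave 1.17 without jet-lagged mouse 3 of ZT10 at 12 weeks (adjusted p = 0.0343), 1.19 without jet-lagged mouse 3 of ZT18 at 12 weeks (adjusted p = 0.0263), 1.20 without mouse 3 of ZT18 at 30 weeks (adjusted p = 0.0339), and 1.09 in the authors' deposited values (adjusted p = 0.0362). The Hspb1 promoter, on the plus strand at chr5:135887787-135887844, held 2 head-to-head heat shock elements, shown because no other of the 9 promoters held more than 1.
Hspb1: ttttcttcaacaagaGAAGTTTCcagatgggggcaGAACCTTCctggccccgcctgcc

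Skeletal muscle makes much Hspb1, and the muscle markers were high in the steady mice at ZT18, where the chaperones were high. Without the 9 muscle-rich arrays the steady range was 1.77 for Hspb1, 1.86 for Hsp90aa1 and 1.98 for Hsph1. With them it was 1.66, 1.90 and 1.97. The 2 steady ZT18 mice kept, 1 of each age, still had muscle means of 0.42 and 0.48. The 6 steady ZT10 mice lay at -4.63 to -1.59. Leaving out these arrays thus kept a muscle difference between the times and cannot show the part of muscle RNA. In single mice the levels went with the muscle markers in some cases and not in others. Steady mouse 2 of 30 weeks at ZT2 had a muscle marker mean of 0.01 with Hspb1 at 5.88 and Hsp90aa1 at 5.60, and mouse 1 a mean of -4.42 with 4.92 and 4.79. In jet lag at ZT18, 12-week mice 1, 2 and 3 had means of -3.51, -3.75 and 1.55, with Hspb1 at 4.75, 5.48 and 6.06 and Hsp90aa1 at 5.09, 5.70 and 5.72. The 30-week mice 1, 2 and 3 in jet lag at ZT18 had means of 3.39, 3.15 and -0.90, with Hspb1 at 4.69, 4.88 and 5.64. Their Hsp90aa1 was at 4.65, 4.87 and 5.37. Jet-lagged mice 1, 2 and 3 of 30 weeks at ZT10 had means of 3.54, -3.91 and 0.46, with Hspb1 at 4.67, 4.77 and 4.58. Their Hsp90aa1 was at 4.19, 4.59 and 4.27. The part of muscle RNA in these levels was not tested.

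**Figure D4:**
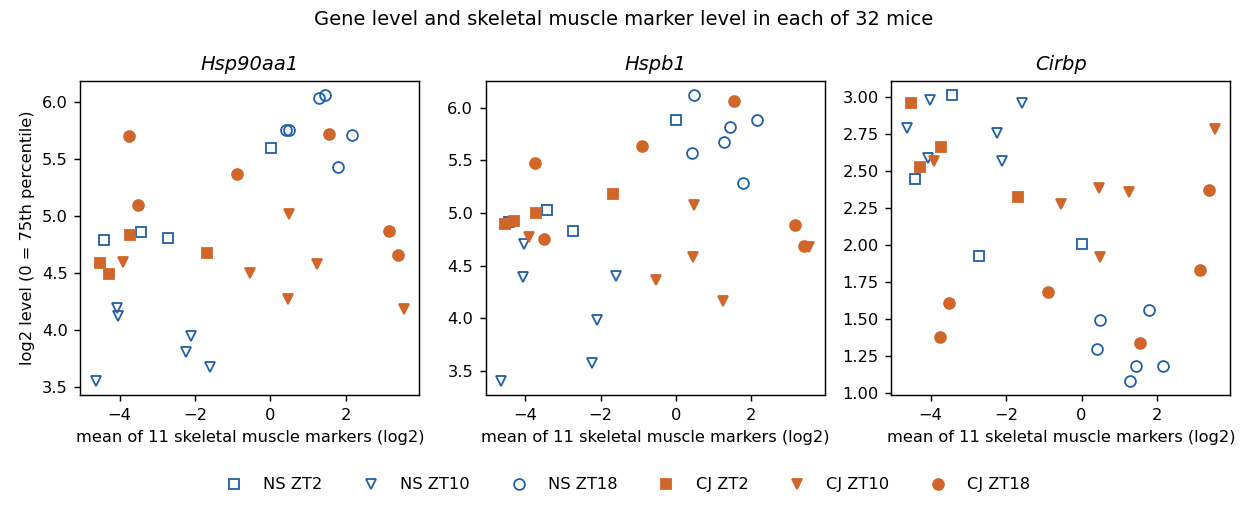
Level of Hsp90aa1, Hspb1 and Cirbp (log2, vertical) against the mean of 11 skeletal muscle markers (log2, horizontal) in each of 32 mice; open blue symbols are steady and filled orange symbols jet-lagged, with squares for ZT2, triangles for ZT10 and circles for ZT18. The 6 steady ZT18 mice lie together on the right (0.42 to 2.15), while jet-lagged ZT18 mice spread from -3.75 to 3.39.

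Cirbp (NM_007705) encodes the cold-inducible RNA-binding protein, which rises when temperature falls. In steady mice its level was 3.01 and 1.92 (12 weeks) and 2.44 and 2.01 (30 weeks) at ZT2. At ZT10 it was 2.56, 2.75 and 2.79 and then 2.98, 2.95 and 2.58, and at ZT18 1.08, 1.18 and 1.29 and then 1.56, 1.49 and 1.18. All 6 mice at ZT18 lay below all others, the reverse of Hspa8, Hspa1a and Dnajb1. ZT18 minus ZT10 was -1.46 ± 0.15 (2.75-fold lower, adjusted p = 1.26e-07).

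In jet lag Cirbp was at 2.32 and 2.66 and then 2.52 and 2.96 at ZT2, and at 2.27, 1.92 and 2.36 and then 2.78, 2.57 and 2.38 at ZT10. At ZT18 it was 1.61, 1.37 and 1.33 and then 2.37, 1.83 and 1.68, which overlapped with ZT10. The range was 0.92 (adjusted p = 0.000983), 63.1% of the steady 1.46 (adjusted p = 2.85e-07). The profiles differed (0.79, adjusted p = 0.0328), with estimates of jet lag minus steady of -0.39 at ZT10 (adjusted p = 0.111) and 0.40 at ZT18 (adjusted p = 0.0914) that were not called.

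The call on the Cirbp profiles was lost under 7 of 12 alternatives. These were no slide block (0.79, adjusted p = 0.0632), slide (0.79, 0.107) or scan day (0.80, 0.0738) as a fixed block, no filter on dim probes (0.79, 0.0651), marker covariates (0.62, 0.374) and leaving out the acinar-rich (0.69, 0.39) or muscle-rich arrays (0.76, 0.177). The call on the jet-lag range was lost without the acinar-rich (0.94, adjusted p = 0.0898) or muscle-rich arrays (0.87, 0.0598). The profile call was also lost without any of 12 mice (0.67 to 0.80, adjusted p = 0.0513 to 0.0782). The mice were, at 12 weeks, steady ZT10 mice 2 and 3, jet-lagged ZT10 mice 1 and 2 and mouse 1 of either schedule at ZT18, and at 30 weeks steady ZT2 mouse 2, steady ZT10 mice 1 and 2, jet-lagged ZT10 mouse 3, steady ZT18 mouse 3 and jet-lagged ZT18 mouse 1. The letters TCCCCGCC were found in 1 of the 2 Cirbp promoters, on the plus strand at chr10:80167589-80167614, and in 4.642% of all promoters on either strand. The stretch is shown because the motif was named for this gene.
Cirbp: ctgTCCCCGCCtcctagtcgctagcg

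Rbm3 (NM_001166409) encodes the closest relative of Cirbp, likewise induced by mild cold. Its steady levels were 2.46 to 2.91 at ZT2, 3.43 to 3.71 at ZT10 and 3.13 to 3.58 at ZT18. Rbm3 was low at ZT2, below all mice at the later times, and ZT18 was not apart from ZT10 (-0.20 ± 0.10, adjusted p = 0.138), unlike Cirbp. The steady range was 0.86 (adjusted p = 7.75e-06), and ZT10 exceeded ZT2 by 0.86 ± 0.11 (1.81-fold, adjusted p = 4.52e-06). In jet lag the levels were 2.58 to 3.34, 3.17 to 3.69 and 3.22 to 3.71, with a range of 0.46 (adjusted p = 0.0177), and the test of the profiles gave 0.39 (adjusted p = 0.27).

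The jet-lag call of Rbm3 was lost without mouse 1 of ZT2 at 12 weeks (0.32, adjusted p = 0.166), whose level of 2.58 was the lowest, or at 30 weeks (0.42, adjusted p = 0.0861). It was also lost with slide as a fixed block (0.49, adjusted p = 0.0512), as the mean of all probes (0.38, 0.0992), with marker covariates (0.47, 0.0953) and without the acinar-rich (0.18, 0.567) or muscle-rich arrays (0.37, 0.173). The other Rbm3 probes were also lowest at ZT2 in both schedules.

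Likeness of profile was described by the root mean square difference between centred means of the 12 groups. The smallest differences among the 9 genes were 0.18 for Dnajb1 and Hspa8, 0.23 for Hsp90aa1 and Hspb1, 0.29 for Hsp90aa1 and Hsph1 and 0.30 for Hsp90ab1 and Hspa8. Hspa1a was 0.51 from its nearest, Dnajb1, and Rbm3 was nearer to Hspa8 (0.39) than to Cirbp (0.64). The largest difference was 1.40, for Cirbp and Hspa1a. The 5 genes of all those with a symbol nearest to Hsp90aa1 were Saysd1 (0.17), Vpreb1 (0.20), Palld (0.21), Hspb1 (0.23) and Gdf9 (0.24), where Hsp90aa1 itself had an SD of 0.65 over groups. Nearest to Cirbp (SD 0.57) were Rd3 (0.21), Fcrla (0.24), Cep70 (0.24), Wdr6 (0.25) and Casp6 (0.26). These distances are descriptions over 12 groups that share all arrays.

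Ordered by group mean, the highest of the 12 groups was steady ZT18 for Hsp90aa1, Hsp90ab1 and Hspb1 and jet-lagged ZT18 at 12 weeks for Hsph1, Hspa8, Hspa1a and Dnajb1. It was steady ZT10 at 30 weeks for Cirbp and jet-lagged ZT10 at 30 weeks for Rbm3. Of the 11 pairs of neighbours in each order, between 0 and 2 had ranges that did not overlap.

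All 8 slides held mice of both schedules, and each difference given here could be read within 4 of them, with ages mixed. ZT18 minus ZT10 in steady mice was above 0 on 4 of 4 slides for each of the 7 chaperones (1.63 to 1.90 for Hsp90aa1) and below 0 on 4 of 4 for Cirbp (-1.68 to -1.23). In jet lag it was above 0 on 3 of 4 slides for Hsp90aa1 (-0.36 to 1.53) and on 4 of 4 for Dnajb1 (0.21 to 1.53). Jet lag minus steady at ZT10 was above 0 on 4 of 4 slides for Hsp90aa1 (0.33 to 0.95) and Hsph1 (0.13 to 1.43) and on 3 of 4 for Hspa8 (-0.04 to 0.56). At ZT18 it was above 0 on 0 of 4 slides for Hsp90aa1 (-1.40 to -0.33) and Hsp90ab1 (-0.72 to -0.04), and on 3 of 4 for Hspa1a (-0.52 to 2.13). For Dnajb1 jet lag minus steady was above 0 on 4 of 4 slides at ZT10 (0.02 to 0.47) and on 2 of 4 at ZT18 (-0.31 to 0.70). No slide held both schedules at ZT2.

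Between 12 and 30 weeks, 0 of the 9 genes differed over both schedules by limma (4.43% of all genes), with 4 at an unadjusted p under 0.05. In steady mice alone 0 differed (0.861% of all genes), with 1 at an unadjusted p under 0.05. In jet-lagged mice 2 differed (4.98% of all genes): Hsp90ab1 was lower at 30 weeks (-0.27 ± 0.07, adjusted p = 0.0206) and Rbm3 was higher (0.29 ± 0.08, adjusted p = 0.0387). The difference of the age effect between schedules was not called for either (adjusted p = 0.171 and 0.331). Jet-lag Hsp90ab1 averaged 7.64 at 12 weeks and 7.06 at 30 weeks at ZT2, with 2 mice each. The means were 7.22 and 7.12 at ZT10 and 7.65 and 7.49 at ZT18. The daily profile differed between ages for 0 of the 9 in steady mice (0.147% of all genes) and 0 in jet lag (0.376%), with 2 and 0 at an unadjusted p under 0.05.

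The partners of these chaperones were read from lists named by function, also chosen with earlier results of these data known. Their counts stand beside the shares of all genes called in the same tests, 31.3% for time of day in steady mice, 11.2% in jet lag and 8.18% for the profiles. In steady mice 11 of 13 HSP90 cochaperones varied over the day, 10 of them highest at ZT18 (33.6% of all genes called), and 3 varied in jet lag. The list's median range was 0.36 against 0.28 over all genes, and then 0.20 against 0.22. Stip1, which joins HSP70 to HSP90, had a range of 1.26 in steady mice (adjusted p = 3.54e-08) and 0.50 in jet lag (adjusted p = 0.00885). Fkbp4, the immunophilin of steroid receptor complexes, had 1.16 (adjusted p = 6.58e-08) and 0.32 (adjusted p = 0.109). The profiles of both differed between schedules (0.85, adjusted p = 0.00116, and 0.91, adjusted p = 0.000682), as did those of 4 of the 13 (8.18% of all genes). Chordc1 had ranges of 1.00 (adjusted p = 1.28e-05) and 0.71 (adjusted p = 0.00336), with the profiles not called (0.74, adjusted p = 0.0616). At ZT18, 3 of the 13 were lower in jet lag (5.38% of all genes) and 0 were higher (4.5%).

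Of 18 HSP70 partners 17 were measured, of which 10 varied in steady mice (31.3% of all genes) and 8 in jet lag (11.2%), 5 and 7 of them highest at ZT18 (33.6% and 36.5% of all genes called). The median range was 0.32 against 0.28 over all genes, and in jet lag 0.28 against 0.22. Hspa4l, an HSP110 relative of Hsph1, had ranges of 1.40 (adjusted p = 2.52e-09) and 0.44 (adjusted p = 0.0129), and its profiles differed (0.96, adjusted p = 0.0003). Hspa13 was highest at ZT2 (1.05, adjusted p = 4.47e-06) and not called in jet lag (0.28, adjusted p = 0.301). The J-protein Dnajb6 was highest at ZT10 in both schedules (0.96, adjusted p = 1.51e-07, and 0.73, adjusted p = 0.000105). At ZT18, 6 of the 17 were higher (4.5% of all genes) and 2 lower (5.38%) in jet lag.

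Of 6 further small heat shock proteins 4 were measured, and 2 varied in each schedule (31.3% and 11.2% of all genes), with a median range of 0.60 and 0.53. Cryab, alpha B-crystallin, had a steady range of 0.99 (adjusted p = 0.0121) and 0.67 in jet lag (adjusted p = 0.284), and Hspb2 0.79 (adjusted p = 0.0396) and 1.02 (adjusted p = 0.0447). Both are made strongly in muscle, whose markers moved with the groups as given above, and their part in these values was not tested. Hspb8 had 0.40 (adjusted p = 0.0514) and 0.39 (adjusted p = 0.0498). Of 4 heat shock factor genes 3 varied in steady mice (31.3% of all genes) and 0 in jet lag by limma, with 2 at an unadjusted p under 0.05 there, and the steady median range was 0.22 against 0.28 over all genes. Hsf4 had the largest range (0.71, adjusted p = 4.69e-06), followed by Hsf2 (0.29, adjusted p = 0.0468) and Hsbp1, an HSF1 inhibitor (0.15, adjusted p = 0.0487). Hsf1 itself was not called (0.14, adjusted p = 0.257).

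Of 9 mitochondrial chaperones and proteases 5 varied in steady mice and 1 in jet lag, against 31.3% and 11.2% of all genes. All 5 were highest at ZT18 in steady mice (33.6% of all genes called). The median range of the 9, 0.17 in steady mice and 0.13 in jet lag, was below that of all genes (0.28 and 0.22). Hspe1 (HSP10) had ranges of 0.45 (adjusted p = 0.000562) and 0.35 (adjusted p = 0.0417), Hspd1 (HSP60) 0.28 (adjusted p = 0.00305) and Dnaja3 0.23 (adjusted p = 0.011). Of the 8 subunits of the TRiC chaperonin, which folds actin and tubulin, 3 varied in steady mice, a share near the 31.3% of all genes, with a median range of 0.26 against 0.28. They were Cct3 (0.59, adjusted p = 4.11e-06), Cct5 (0.31, adjusted p = 0.000843) and Cct7 (0.29, adjusted p = 0.00194). In jet lag 0 did by limma, with 2 at an unadjusted p under 0.05.

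CLK kinases and the SR splicing factors they phosphorylate varied in 4 of 11 genes in steady mice and 2 in jet lag, shares near those of all genes (31.3% and 11.2%), and their steady median range was 0.24 against 0.28. Srsf5 was highest at ZT2 in both (0.72, adjusted p = 2.74e-06, and 0.49, adjusted p = 0.0017). Clk4 (0.41, adjusted p = 0.0102) and Srsf4 (0.38, adjusted p = 0.00867) were highest at ZT10 in steady mice. Of 5 cold shock domain proteins 4 were measured. In steady mice 3 varied (31.3% of all genes), all highest at ZT18 (33.6% of all genes called), and in jet lag 1 did (11.2%). The steady median range was 0.26 against 0.28 over all genes. Those that varied in steady mice were Ybx3 (0.50, adjusted p = 0.000253), Carhsp1 (0.28, adjusted p = 0.0384) and Ybx1 (0.24, adjusted p = 0.0109).

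For reference, all 7 clock genes varied in steady mice (31.3% of all genes) and 4 in jet lag (11.2%), and the profiles of 6 differed (8.18%). Dbp had a range of 6.38 in steady mice (adjusted p = 1.9e-11) and 0.73 in jet lag (adjusted p = 0.308), Arntl 5.93 (adjusted p = 6.73e-11) and 1.30 (adjusted p = 0.082), and Nr1d1 5.74 (adjusted p = 4.02e-10) and 2.19 (adjusted p = 0.00349). Per2 had ranges of 2.49 (adjusted p = 5.34e-08) and 2.43 (adjusted p = 1.33e-06), and its profiles were not called (0.22, adjusted p = 0.916).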

How the data were processed

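For each array the authors deposited the output of Agilent Feature Extraction (version 11.0.1.1 per the file headers, 9.1 per the submitters' processing notes). The intensity used from the deposited files is the processed signal, from which the scanner software had removed background within each array, per the file headers; arrays were not scaled to each other. A further table from the authors holds log2 values, normalised and with an unnamed batch effect removed per the series' design text. It was used as an alternative only.

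Of 62976 spots 3671 were controls. Controls and spots marked as outliers were left out and spots of a probe averaged. The processed signal was divided by its 75th percentile on that array and put on the log2 scale. A probe was kept if every array of 1 group or more had it well above background (30488 of 55681), and the brightest stood for a gene. Probes were named through their RefSeq identifiers (GRCm38.p6 table), which gave 26582 a symbol. Of 23110 genes tested, 14082 had a symbol.

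The 12 groups were fitted as means with limma 3.58.1 in R 4.3.3, with slide (8 of 4 arrays) as a random block (correlation 0.244). Adjusted p values are Benjamini-Hochberg over all genes, from this test. Ages were averaged with equal weight. The schedules share 1 error estimate per gene. Arrays were scanned on 6 days, tried as a block.

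The members and lists were chosen with earlier results of these data known. All members were named, with up to 3 genes of each list (called genes of largest steady range first) and the 5 nearest in profile to Hsp90aa1 and Cirbp. Normexp (offset 50) was run on the median signal, as the files hold no mean signal. The pipeline was tested on simulated data. Each replicate is another mouse, and precision is limited by how many arrays there are.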

Additional observations from a re-analysis of the deposited data

Results flagged for a closer look

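Effects of jet lag that differed between times of day, by the test of schedule by time itself, were called for 3 of the 9 genes with both ages. The range of the difference was 1.62 on the log2 scale for Hsph1 (adjusted p = 0.00517, limma), 1.21 for Hsp90aa1 (adjusted p = 0.00142) and 0.79 for Cirbp (adjusted p = 0.0328). At 12 weeks alone it was 1.40 for Hsp90aa1 (adjusted p = 0.0417). Groups of 2 or 3 mice were too small for a test of single outlying samples.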

How the results depend on the processing

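Over the members' results and 12 alternatives, 366 values kept their direction and their side of the threshold, 57 kept their direction and lost the call, 1 gained it and 3 turned. The number of genes that varied in jet lag was 3 without the acinar-rich and 3 without the muscle-rich arrays. Profiles that differed between schedules numbered 1 with slide as a fixed block, 1 with marker covariates and 0 without the acinar-rich arrays. Over the 3 times 1 gene differed without the muscle-rich arrays. At ZT10 1 differed with slide as a fixed block, 0 with marker covariates and 0 without the acinar-rich arrays, and at ZT18 0 without either set of arrays. For the profiles, calls over all genes fell as well, from 1890 to 1170 with slide as a fixed block and 591 with marker covariates. The fits without either set of arrays left some groups with 1 mouse. They called fewer of all genes too, for time of day in jet lag, the profiles and over the 3 times. The causes were not tested. Leaving out the muscle-rich arrays and scan day as a block were chosen after seeing the data.

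When each mouse was left out in turn, counts were 9 to 9 for time of day in steady mice, 7 to 9 in jet lag, 2 to 4 for the profiles, 2 to 4 over the 3 times, 0 to 1 at ZT2, 2 to 4 at ZT10, 2 to 4 at ZT18 and 0 to 1 for age. Values that turned, none of them called, were the test of the profiles of Hspa1a with marker covariates (0.51) and of Dnajb1 in the authors' table (0.0812), with marker covariates (0.0214) and without jet-lagged ZT18 mouse 3 of 12 weeks (0.0429) or 30 weeks (0.0542); over all 32 mice left out in turn this test of Dnajb1 gave 0.0395 to 0.272.

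With the replicate number as a block the counts were 9, 8, 3, 3, 0, 3, 3 and 0 in the same order. The numbers name separate mice and pair nothing: deviations correlated by -0.02 between arrays of the same number and 0.01 otherwise, and 3 of 32 arrays correlated best with their own number. Probes near background limit Hspa1a.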
